A study of Mus musculus with 4 samples.

Results

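The AP-1 family, with Atf3 and the small MAF genes Maff and Mafk, was followed through every probe set that the array annotation assigns to exactly 1 of 10 symbols, Fos, Fosb, Fosl1, Fosl2, Jun, Junb, Jund, Atf3, Maff and Mafk. These were 10 of the 18193 genes with such a probe set, and they were measured by 14 of the 34945 probe sets with 1 symbol. Fosl1, Fosl2, Jun and Jund had 2 probe sets each and the others had 1. The cells were HL-1, an established mouse line of beating atrial myocytes that descends from an atrial tumour of a mouse whose natriuretic peptide promoter drove the SV40 large T antigen. In 2 samples confluent cells received electric pacing for 24 h at 300 beats per minute, by the labels 1.5 to 2 times the control rate, and 2 control samples beat on their own without it. Each sample was hybridised to 1 Affymetrix array. No group was paced at the control rate, so a faster rate and the current as such cannot be told apart. The titles of the stimulated samples carry exp 1 and exp 2, and those of the controls carry no number. No label says that samples of a group came from separate cultures, so the spread behind each p-value may be technical.

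AP-1 is not 1 protein but a pair of proteins, in most cases 1 of the JUN group (Jun, Junb, Jund) with 1 of the FOS group (Fos, Fosb, Fosl1, Fosl2). Both partners carry a basic region that grips DNA and a leucine zipper that holds the pair together, the bZIP fold, which Atf3 and the small MAF proteins share. JUN proteins can pair with themselves and with ATF proteins, whereas FOS proteins need a partner. Fos, Fosb, Jun, Junb and Atf3 are early response genes, switched on within minutes of a stimulus, and in heart muscle they are known to respond to stretch, catecholamines and calcium entry. Here a single time point after a day of pacing was measured, so no early peak could be seen.

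AP-1 pairs bind the sequence TGANTCA, and pairs with ATF or CREB proteins favour the cyclic AMP response element, TGACGTCA. The bases before the start sites of the member genes are therefore shown first. RefSeq start sites of the mouse assembly GRCm38.p6 were found for 9 of the 10 genes, Fosl1 being the one without an entry, and 11 start sites in all because Maff had 3. The 250 bases before each start were searched on both strands for TGANTCA, TGACGTCA, the same element with any middle base (TGACNTCA), its core TGACG, the C/EBP-ATF element TGATGNAA and the CArG box of serum response factor. TGACNTCA includes every TGACGTCA, and every TGACGTCA holds the core on both strands. The element with any middle base was added after the sequences had been seen. Capitals mark the matches in the genes that rose, and in Fos for comparison.
Atf3, chr1:191183334-191183583, - strand: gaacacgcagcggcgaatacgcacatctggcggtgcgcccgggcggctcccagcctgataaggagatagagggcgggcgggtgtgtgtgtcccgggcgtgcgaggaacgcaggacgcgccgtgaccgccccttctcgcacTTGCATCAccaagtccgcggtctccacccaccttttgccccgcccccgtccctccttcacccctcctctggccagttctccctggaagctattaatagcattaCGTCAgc
Jun, chr4:95052223-95052472, - strand: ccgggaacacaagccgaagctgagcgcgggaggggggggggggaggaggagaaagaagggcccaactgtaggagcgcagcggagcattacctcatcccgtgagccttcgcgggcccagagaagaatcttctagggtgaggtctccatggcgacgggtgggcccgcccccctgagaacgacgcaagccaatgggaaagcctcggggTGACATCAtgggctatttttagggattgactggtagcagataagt
Maff, the second of its 3 start sites, chr15:79347270-79347519, + strand: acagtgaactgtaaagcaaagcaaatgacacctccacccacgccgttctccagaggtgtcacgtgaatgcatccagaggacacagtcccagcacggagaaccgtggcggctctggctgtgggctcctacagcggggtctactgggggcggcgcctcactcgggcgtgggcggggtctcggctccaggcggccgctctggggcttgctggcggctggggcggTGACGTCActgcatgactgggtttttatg
Mafk, chr5:139791286-139791535, + strand: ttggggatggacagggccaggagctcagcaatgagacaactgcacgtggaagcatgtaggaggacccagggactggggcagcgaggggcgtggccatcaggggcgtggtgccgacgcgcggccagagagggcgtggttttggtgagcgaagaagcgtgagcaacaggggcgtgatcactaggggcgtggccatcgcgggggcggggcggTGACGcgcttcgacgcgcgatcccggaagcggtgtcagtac
Fos, chr12:85473640-85473889, + strand: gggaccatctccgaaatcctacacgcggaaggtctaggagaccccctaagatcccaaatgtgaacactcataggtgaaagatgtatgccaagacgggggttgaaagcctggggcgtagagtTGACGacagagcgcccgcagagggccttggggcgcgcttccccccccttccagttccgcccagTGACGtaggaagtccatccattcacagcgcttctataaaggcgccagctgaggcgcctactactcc

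The Maff start held the only full TGACGTCA among the 11, at 29 to 22 bases before the start, where 1.55% of all 32851 RefSeq promoters of this length hold one. TGACATCA, which matches TGACNTCA, lay 45 to 38 bases before the Jun start and at the same distance before the third Maff start (7.49% of all promoters hold TGACNTCA). The core TGACG was found before 7 of the 11 starts, of Fos, Fosb, Junb, Atf3, Mafk and 2 of Maff, against 17.8% of all promoters. The bases before these 7 were 58.4% to 68.8% G or C, and those before the other starts 47.6% to 64.4%. The share over all promoters was not matched for G and C content. Of the 11 starts only that of Atf3 held the C/EBP-ATF element, as TTGCATCA 110 to 103 bases before its start (3.45% of all promoters). Neither TGANTCA (6.75% of all promoters) nor the CArG box (1.47%) was found before any of the 11 starts. A match is a description of letters and no measure of binding, and sites farther from the start were not searched.

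**Figure D1:**
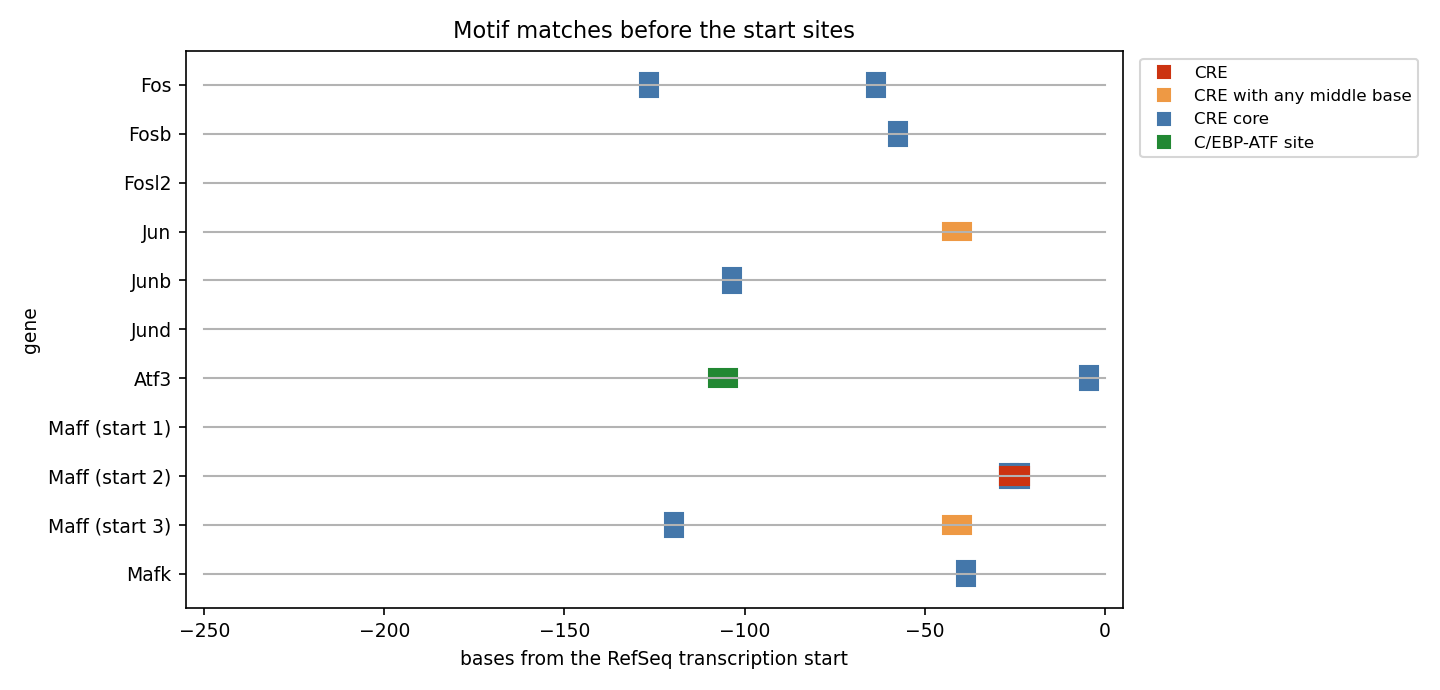
Motif matches in the 250 bases before each of 11 RefSeq start sites of 9 member genes, with the distance from the start in bases on the x axis and 1 row per start site. The Maff start 2 row holds the only full CRE, Jun and Maff start 3 hold the variant at the same distance, and Fosl2, Jund and Maff start 1 hold no match.

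Levels are on the log2 scale of RMA, so that a difference of 1 is a 2-fold difference. They are compared between arrays for 1 probe set at a time and not between probe sets, whose brightness depends on their bases. A probe set entered the test where its mean over the 4 arrays reached 4.39, the 40th percentile, which left 27022 probe sets. Of the members 12 of 14 probe sets were tested, and all 12 had a control mean above that level too, the lowest being 4.53. The groups were compared with limma, and a probe set is said to have risen or fallen where its p, adjusted by the Benjamini-Hochberg method over all 27022, was under 0.05. The members were chosen with earlier results of these data known. Of the 12 tested, 6 rose and 0 fell, where 2.46% of all probe sets tested rose and 1.38% fell. At an unadjusted p under 0.05, 9 were higher and 0 lower, where 12.0% of all probe sets tested were higher and 11.9% lower. The 6 belonged to 5 genes, Atf3, Maff, Fosl1, Jun and Mafk, with adjusted p between 0.0264 and 0.0343. In 11 of the 12 both stimulated arrays lay above both control arrays, as in 25.3% of all probe sets tested.

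These calls depended on having 2 arrays in each group. Without control 1 or without control 2, 0 member probe sets passed the adjusted threshold in limma (8 and 9 at an unadjusted p under 0.05), where 25 and 7 of all 27022 passed. Without stimulated 1 the rises were 3, of Atf3, Fosl1 and Jun, and without stimulated 2 they were 2, of Atf3 and Fosl1, where 114 and 80 of all 27022 passed. A lone array in a group was assumed to vary like the other group.

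**Figure D2:**
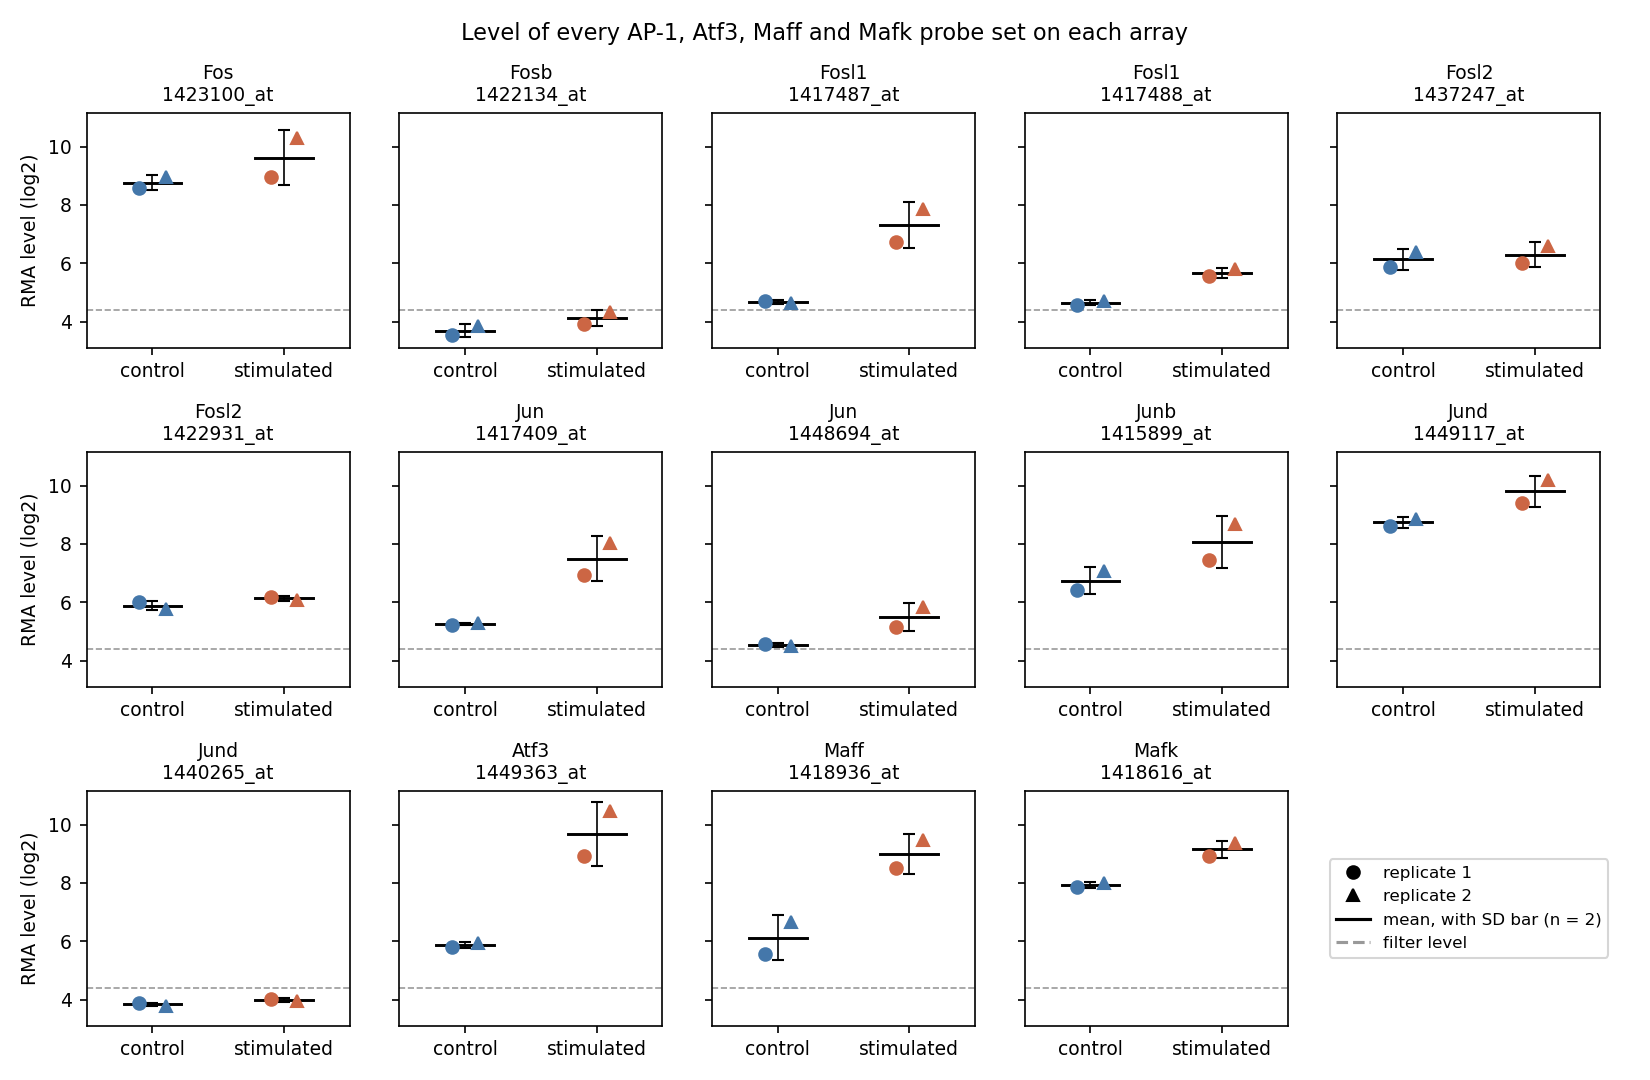
Level of each of the 14 member probe sets on the 4 arrays, in log2 units, with the replicate 1 array as a circle, the replicate 2 array as a triangle, the group mean as a line with its SD (n = 2) and the filter level as a dashed line. The stimulated arrays of Atf3 (8.92 and 10.47) stand far above its control arrays (5.79 and 5.96), those of Fosl2 do not, and levels of different panels are not to be compared.

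Atf3, a bZIP factor induced by many kinds of stress that pairs with JUN proteins or with itself, had the largest change of the 14 member probe sets. Its probe set read 5.79 and 5.96 on the control arrays and 8.92 and 10.47 on the stimulated arrays. Both stimulated arrays were far above the controls, with a gap of 2.96 between the groups, but they differed from each other by 1.55. The rise was 3.82 ± 0.47 (SE) on the log2 scale, or 14.1-fold with a 95% confidence interval of 6.41-fold to 31.2-fold (limma, adjusted p = 0.0264). Among the 27022 probe sets it was the 8th largest rise. The change was 24.2-fold without stimulated 1 and 8.26-fold without stimulated 2, so its size rests on which paced array is kept.

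Among the FOS group, Fosl1, which encodes FRA-1, a FOS protein that lacks the strong activation domain of Fos, rose on both of its probe sets. Probe set 1417487_at read 4.72 and 4.62 on the control arrays, against 6.74 and 7.86 on the stimulated arrays. Probe set 1417488_at read 4.58 and 4.72 in controls and 5.55 and 5.79 in stimulated cells. The control arrays of both stood close to the filter level of 4.39, and neither probe set's groups overlapped. The rise was 2.63 ± 0.35 (6.20-fold, adjusted p = 0.0280) on the former and 1.02 ± 0.15 (2.03-fold, adjusted p = 0.0313) on the latter, so the gene rose on both by amounts that differed by 1.61.

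Fos, the founding member, was well above the filter level without pacing, at 8.58 and 8.95 on the control arrays. The stimulated arrays read 8.95 and 10.29. Stimulated 1 lay level with control 2, the groups being apart by only 0.0012, and stimulated 2 lay well above both. The difference of 0.86 ± 0.42 did not pass the test (adjusted p = 0.280) and has an interval of -0.17 to 1.89. It was 0.19 without stimulated 2 and 1.53 without stimulated 1, and neither passed. Fosb, a close relative of Fos, was below the filter level and was not tested. It read 3.53 and 3.84 on the control arrays and 3.92 and 4.33 on the stimulated arrays.

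Fosl2, which encodes FRA-2, showed little difference on either probe set. Probe set 1437247_at read 5.88 and 6.39 in controls and 5.996 and 6.60 in stimulated cells, and was the only member probe set whose groups overlapped. Its difference was 0.16 ± 0.26, with an interval of -0.47 to 0.80 (adjusted p = 0.772). It turned to -0.10 without control 1 and -0.14 without stimulated 2, and was 0.42 without control 2 and 0.46 without stimulated 1. Probe set 1422931_at read 5.999 and 5.77 in controls and 6.19 and 6.08 in stimulated cells, a difference of 0.25 ± 0.14 with an interval of -0.10 to 0.60 (adjusted p = 0.351), and 0.14 without control 2. The upper bounds of these intervals, 0.80 and 0.60, lie below the lower bound for Fosl1 on 1417487_at, 1.78, but the interval of its other probe set, 0.66 to 1.38, overlaps the wider of them. The difference between the changes of Fosl1 and Fosl2 was not itself tested.

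Of the JUN group, Jun, a main partner of FOS proteins and a substrate of the JNK kinases, rose on 1 of its 2 probe sets. Probe set 1417409_at read 5.22 and 5.28 on the control arrays and 6.95 and 8.05 on the stimulated arrays. The controls lay within 0.06 of each other, and the stimulated arrays were higher but differed by 1.10. This was a rise of 2.25 ± 0.34, or 4.76-fold with an interval of 2.67-fold to 8.47-fold (adjusted p = 0.0343). Probe set 1448694_at read 4.57 and 4.48 in controls and 5.16 and 5.85 in stimulated cells. Its groups did not overlap either, but the difference of 0.98 ± 0.24 did not pass (adjusted p = 0.0775), and it was 0.63 without stimulated 2.

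Junb and Jund, which in many cells restrain growth where Jun promotes it, were higher on both stimulated arrays without passing the test. Junb read 6.42 and 7.07 in controls and 7.43 and 8.70 in stimulated cells, a difference of 1.33 ± 0.43 with an interval of 0.28 to 2.37 (adjusted p = 0.136). It was 0.69 without stimulated 2 and 1.96 without stimulated 1. Jund, the JUN protein that most resting cells make, read 8.61 and 8.87 in controls and 9.42 and 10.19 in stimulated cells on probe set 1449117_at. That difference was 1.06 ± 0.27 with an interval of 0.41 to 1.71 (adjusted p = 0.0833), and it was 0.68 without stimulated 2. Its other probe set, 1440265_at, lay below the filter level at 3.88 and 3.79 in controls and 4.03 and 3.93 in stimulated cells and was not tested. The intervals of Junb and of Jund on 1449117_at leave out 0.

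The small MAF proteins have a bZIP fold but no activation domain, and pair with themselves, with FOS proteins or with the CNC factors such as NRF2 and BACH1. Maff, which cytokines and stress can induce, read 5.57 and 6.67 on the control arrays and 8.51 and 9.49 on the stimulated arrays. Its control arrays differed by 1.10, the widest control gap of any member probe set, and its stimulated arrays were still above both by at least 1.84. The rise was 2.88 ± 0.44, or 7.35-fold with an interval of 3.47-fold to 15.6-fold (adjusted p = 0.0343). Mafk read 7.85 and 7.99 in controls and 8.93 and 9.37 in stimulated cells. It rose by 1.23 ± 0.18, or 2.34-fold with an interval of 1.73-fold to 3.18-fold (adjusted p = 0.0331). Mafg, the other small MAF gene, stands in a list below and rose as well.

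**Figure D3:**
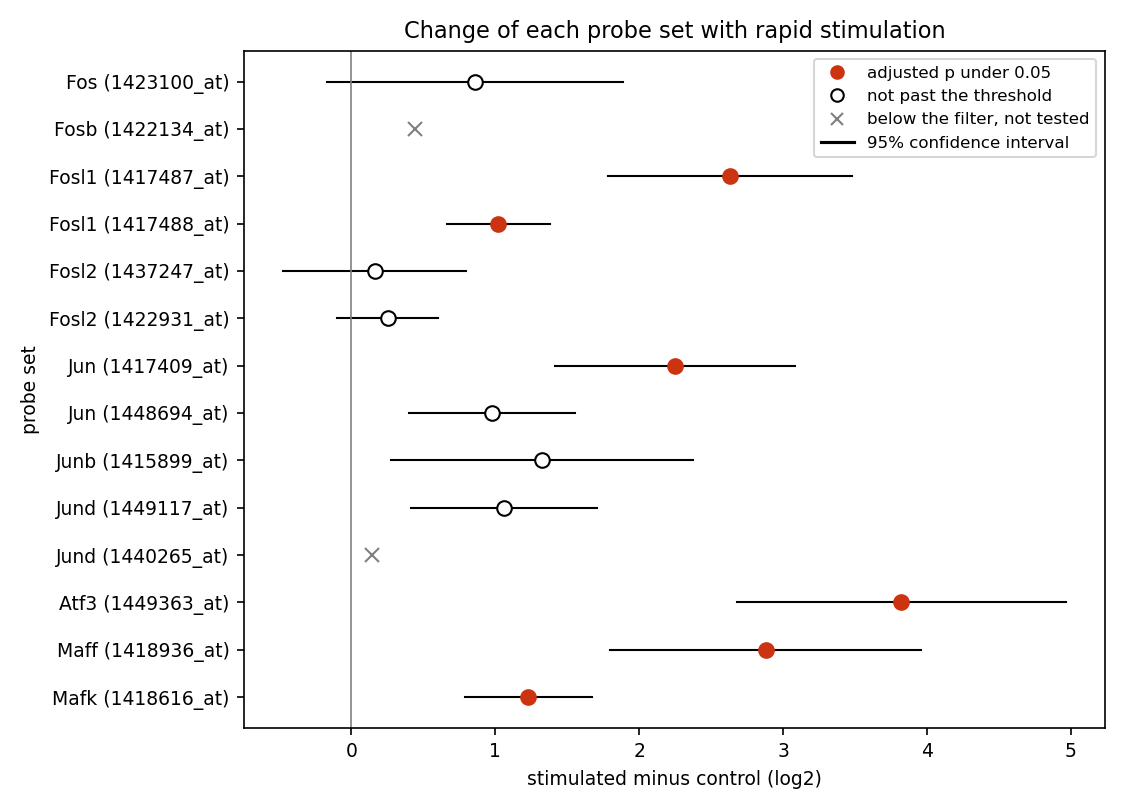
Change of each member probe set, stimulated minus control in log2 units on the x axis, with the 95% confidence interval of the limma fit as a bar. The 6 filled points passed the adjusted threshold, all to the right of 0, the 6 open points did not, and the 2 crosses lay below the filter level and were not tested.

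The members differed in how evenly the paced arrays moved. Stimulated 2 read higher than stimulated 1 on 12 of the 14 member probe sets, the exceptions being Fosl2 (1422931_at) and Jund (1440265_at), and on all 6 that rose. Among all probe sets tested stimulated 2 was the higher on 45.3%, and among those that rose on 52.4%. The stimulated arrays were over 1 apart on 3 of the 6 member probe sets that rose, those of Atf3, Fosl1 (1417487_at) and Jun (1417409_at), against 3.003% of all probe sets that rose. Control 2 read higher than control 1 on 10 of the 14, but the share over all probe sets was not counted, so nothing is read from it.

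**Figure D4:**
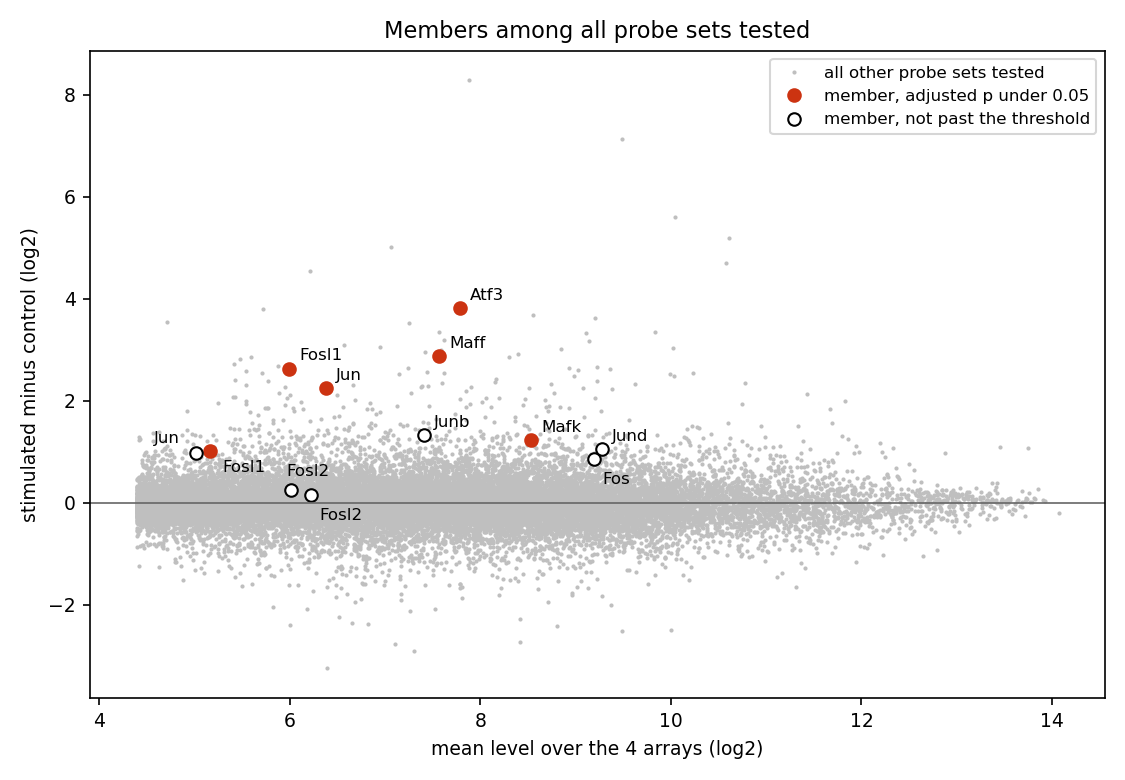
Mean level over the 4 arrays (x axis, log2) against the change, stimulated minus control (y axis, log2), for all 27022 probe sets tested in grey and the 12 tested member probe sets in colour or open. Atf3, Maff, Fosl1 and Jun stand near the upper edge of the cloud at changes of 3.82, 2.88, 2.63 and 2.25, and both Fosl2 probe sets lie inside it.

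Where a gene had 2 probe sets, these may read different parts of its transcripts, which was not tested. For Fosl1 the changes differed by 1.61 and for Jun by 1.27, and for Fosl2 by 0.09. For Fosl1 and Jun the smaller change was on the dimmer probe set, with means over the 4 arrays of 5.16 and 5.01. Their brighter probe sets had means of 5.98 and 6.37. For Fosl2 the smaller change was on the brighter probe set. The part of the level in these gaps was not tested. Over the 145 genes with exactly 2 tested probe sets of which at least 1 rose, the median gap was 0.49 and the upper quartile 0.85, and on 23.4% of these genes both rose.

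The genes that work around AP-1 were counted from 6 lists drawn from general knowledge, with 1 probe set per gene, the brightest, over 13058 genes tested, of which 3.91% rose and 1.62% fell and whose median change was -0.01. At an unadjusted p under 0.05, 13.9% of them were higher and 11.7% lower, and the unadjusted counts of each list are to be read against these shares. Their adjusted p is taken over these 13058. Among ATF, CREB and BATF genes, the nearest bZIP relatives of the members, 3 of 17 rose and 1 fell (5 higher and 2 lower at an unadjusted p under 0.05), with a median of 0.17. Atf4, the translation-controlled stress factor, rose by 1.26 ± 0.12 (adjusted p = 0.0144, other probe sets 0.21 to 1.33). Jdp2, a JUN partner that represses AP-1 sites, rose by 0.77 ± 0.12 (adjusted p = 0.0303), but its other probe set differed by -0.17. Crebzf rose by 0.65 ± 0.12 (other probe sets 0.04 to 0.54), and Creb3l2, a membrane-bound factor of the secretory pathway, fell by 1.18 ± 0.23 but did not pass with each array centred on its median or with no filter. All 4 of these calls were lost in each of the 4 fits with an array left out.

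Among MAF, CNC, CEBP and PAR genes 4 of 15 rose and 0 fell (8 higher and 1 lower at an unadjusted p under 0.05), with a median of 0.62. Ddit3, which encodes CHOP, rose by 2.62 ± 0.13 (adjusted p = 0.00221, other probe set 1.30). Cebpb, a bZIP factor of the acute phase response, read 8.21 and 8.70 in controls and 10.56 and 11.02 in stimulated cells, a rise of 2.33 ± 0.23 (adjusted p = 0.0149). Cebpg, a C/EBP partner without an activation domain, rose by 1.14 ± 0.21 (other probe sets 0.49 to 1.24). Mafg read 8.47 and 8.30 in controls and 9.26 and 9.62 in stimulated cells, a rise of 1.06 ± 0.17 (adjusted p = 0.0317), so that all 3 small MAF genes rose. Unlike that of Ddit3, the calls of Cebpb, Cebpg and Mafg were lost with any array left out, as were those of Maff and Mafk.

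The kinases and cofactors that act on AP-1 proteins were counted in the same way. Of 23 MAP kinase cascade genes 1 rose and 0 fell (3 higher and 3 lower at an unadjusted p under 0.05), with a median of 0.01. The 1 was Map2k3, an activator of p38, which read 8.94 and 9.09 in controls and 9.91 and 10.22 in stimulated cells and rose by 1.05 ± 0.15 (adjusted p = 0.0294). The call of Map2k3 was lost with any array left out. Mapk12, a p38 kinase, differed by 0.61 (adjusted p = 0.0793, the other probe set at -0.43). Mapk9, a JNK, differed by 0.40 (adjusted p = 0.161, other probe sets 0.008 and 0.28). Of 21 genes for SRF, its TCF and MRTF cofactors and AP-1 cofactors 0 passed in limma (3 higher and 1 lower at an unadjusted p under 0.05), with a median of 0.11. The casein kinase genes Csnk2a2 and Csnk2a1 differed by 0.48 and 0.36 and the CREB coactivator gene Crtc2 by 0.40, with adjusted p between 0.0754 and 0.155. Myocd, a cardiac cofactor of SRF named after its values had been seen, differed by -0.82 (adjusted p = 0.156, other probe set -1.05). Kinase activity and phosphorylation were not measured.

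Of 17 tested genes known as AP-1 targets, many of which answer to other factors too, 4 rose and 0 fell (10 higher and 0 lower at an unadjusted p under 0.05), with a median of 0.41. Plaur, the urokinase receptor, read 5.82 and 6.02 in controls and 8.38 and 8.73 in stimulated cells and rose by 2.64 ± 0.17 (adjusted p = 0.00424). Mmp13, a collagenase whose promoter is a classic AP-1 target, read 4.63 and 4.50 in controls and 6.42 and 6.60 in stimulated cells and rose by 1.94 ± 0.13 (adjusted p = 0.0056). Nppa, which encodes the atrial natriuretic peptide, rose by 2.00 ± 0.14, and Hbegf, a growth factor of the EGF family, by 1.55 ± 0.12 (other probe set 0.72). Of the other 13 genes of the list, 4 had no probe set of their own in the annotation and 9 lay below the filter level. Of 14 other early response factor genes 0 passed in limma (5 higher and 0 lower at an unadjusted p under 0.05), though all 14 differed upward (49.1% of all genes tested did), with a median of 0.28. Egr1, a zinc finger early gene, read 7.82 and 7.79 in controls and 8.81 and 10.42 in stimulated cells, a difference of 1.81 ± 0.48 (adjusted p = 0.0832), and it passed without stimulated 1. Myc differed by 1.08 (adjusted p = 0.0838) and Ier5 by 0.67 (adjusted p = 0.0673, other probe sets 0.04 and 0.18). Klf6 was counted by its brightest probe set, at 0.39, but its other probe sets differed by 0.96 to 1.33. Other probe sets of Klf4 and Nr4a2 went as low as -0.27 and -0.18.

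With 1 array left out the listed genes that passed fell from 13 to between 3 and 6, while those among all 13058 fell from 722 to between 20 and 113. Ddit3, Nppa and Plaur passed in each of the 4 fits, and Mmp13 in all but the one without control 2. The median of the ATF, CREB and BATF list was 0.02 without stimulated 1 and 0.10 without control 2. That of the other early factors was 0.50 without stimulated 1, that of the SRF list was 0.07 without stimulated 2, and that of the MAP kinase list lay between -0.01 and 0.02 and turned below 0 without control 1 and without stimulated 2. The medians also depended on the filter, which drops dim genes. With no filter they were 0.04 for the ATF, CREB and BATF list, 0.19 for the MAF, CNC, CEBP and PAR list, 0.23 for the AP-1 targets and 0.31 for the other early factors, and past the 60th percentile that of the AP-1 targets was 0.97 over 9 genes. The median of the MAP kinase list was -0.008 with no filter and -0.005 past the 60th percentile.

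**Figure D5:**
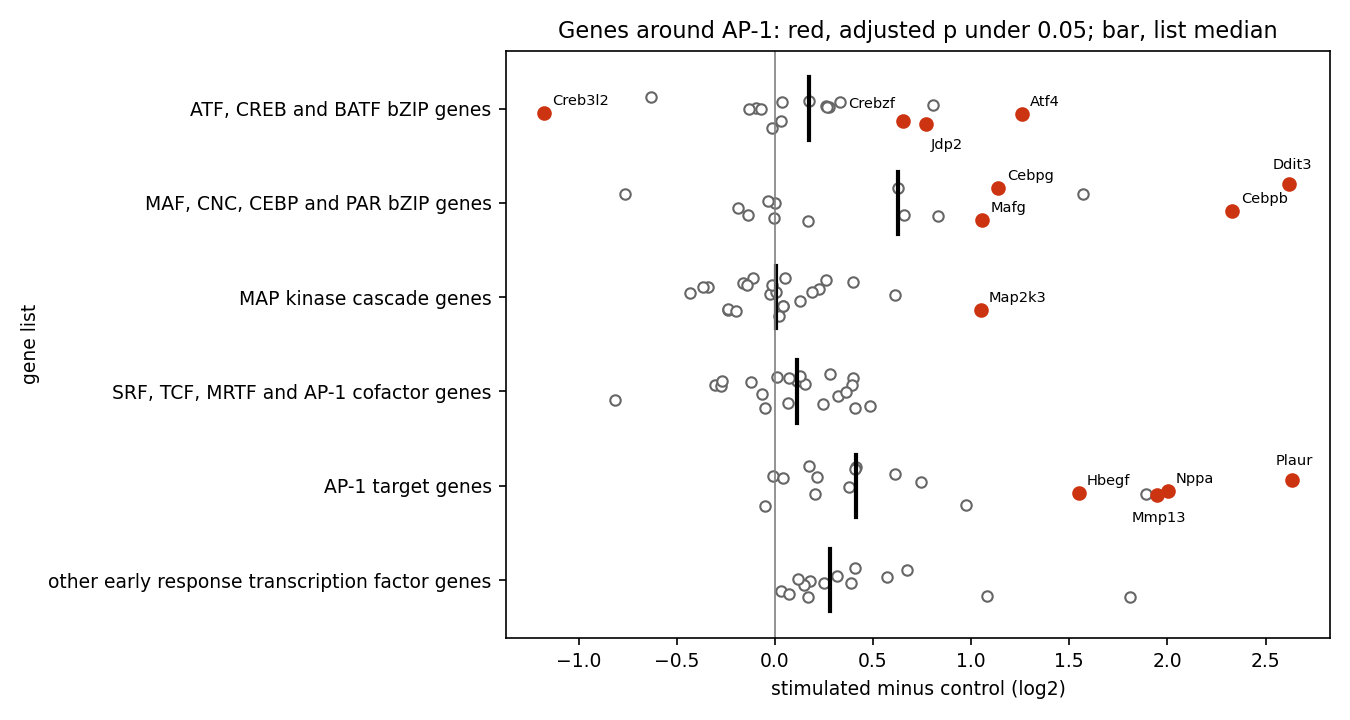
Change of every tested gene in the 6 lists, stimulated minus control in log2 units on the x axis, with 1 row per list, filled points for genes that passed the adjusted threshold and a bar at the list median. With this filter the C/EBP and MAF row has the highest median, 0.62, and the MAP kinase row the lowest, 0.01.

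By the likeness of the 4 values, each gene being centred on its own mean, the genes closest to Atf3 were Ccn1, Gadd45g, Efr3b, Ccn2 and Acta1, at root mean square differences of 0.40 to 0.50. Ccn1, for example, read 7.76 and 8.55 in controls and 11.07 and 11.96 in stimulated cells. Those closest to Fosl1 (1417487_at) were Zfand2a, Hsph1, Stmn4, Gm364 and Ppp1r15a, at 0.06 to 0.20. Zfand2a read 8.74 and 8.73 in controls and 10.70 and 11.80 in stimulated cells, which is nearly the course of Fosl1. With 4 arrays this likeness is only a description.

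All 10 atrial and cardiac muscle markers, such as Myh6, Myl7 and Tnnt2, were past the filter level, but 9 of the 10 were lower in sign in stimulated cells. Ryr2, the calcium release channel, fell by 0.85 (adjusted p = 0.0419), Pln, Myh6 and Tnnc1 differed by -1.36, -1.03 and -0.67 without passing, and Nppa rose. Their summed log2 level was 119.0 and 119.1 in controls and 114.0 and 117.8 in stimulated cells, and its part in the results above was not tested. Of genes listed as markers of other cells, 4 of 7 for fibroblasts, 4 of 5 for smooth muscle, 1 of 6 for endothelium and 4 of 6 measured for leukocytes were past it. Of these only Cd68, a lysosomal protein used as a macrophage marker, rose (2.08, adjusted p = 0.0187), from a control mean of 4.386 just under the filter level, so it was tested only because it was high in stimulated cells, while Ptprc, the pan-leukocyte marker, stayed below the filter level at 3.28 in controls and 3.21 in stimulated cells. The summed log2 level of the 6 leukocyte markers was 26.5 and 28.3 in controls and 29.2 and 28.9 in stimulated cells, and without Cd68 the sum of the changes of the other 5 was -0.41. The part of Cd68 in the results above was not tested. In the smooth muscle list Tagln and Des differed by 0.90 and 0.75 without passing, Cnn1 by 0.30 and Acta2 by -0.06. Myh11 lay below the filter level, at 4.13 in controls and 4.06 in stimulated cells, and was not tested. Genes of this list are not exclusive to smooth muscle, so their levels do not show that such cells were present. The summed log2 level of the 5 smooth muscle markers was 49.7 and 51.5 in controls and 51.6 and 53.3 in stimulated cells. The part of this sum in the results above was not tested. In such bulk samples fewer cells of a type and less RNA per cell cannot be told apart. The difference between the 3' and 5' control probe sets of Gapdh, a sign of RNA integrity, was -0.10 and -0.07 in controls and -0.05 and -0.03 in stimulated samples, and that of beta-actin was 0.28 and 0.22 in controls and 0.25 and 0.30 in stimulated samples.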

How the data were processed

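The deposited values were log2 expression values, 1 per probe set and array, made by the authors with RMA (background correction, quantile normalization and summary per probe set) per the submitters' processing notes; its version and settings are not given in the sources used here. RMA compresses differences near both ends of the scale, so changes of dim probe sets can be understated. The arrays had medians of 4.96 to 5.01. With 2 arrays per group, their number limits the precision.

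Of 45101 probe sets 64 were manufacturer controls; of the rest 34945 had 1 gene symbol, 932 several and 9160 none. The gene identifiers of 34741 were found in a RefSeq table, and 0 symbols differed. Two-sided limma 3.58.1 fits (R 4.3.3, lmFit and eBayes) were run over probe sets and over genes past the 40th percentile. The code was also run on simulated data with planted changes and independent noise of 1 common SD. The spreads of real probe sets are unequal, so that run checks the code and not the calls above. An exact permutation test of 2 against 2 cannot give p below 0.333. Named genes were the members, the called genes and the 3 smallest p of each list, and the 5 genes most like Atf3 and Fosl1. Members and lists were chosen with earlier results of these data known. Alternatives were other filters, median centring, an intensity trend, left-out arrays, a replicate block and gene summaries.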

Additional observations from a re-analysis of the deposited data

How the results depend on the processing

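Of 27022 probe sets 1039 passed, and between 7 and 114 with 1 array left out. The member probe sets that passed fell from 6 to between 0 and 3, and the listed genes from 13 to between 3 and 6. The Fosl2 probe set 1437247_at, which did not pass, turned to -0.10 without control 1 and -0.14 without stimulated 2, and with an array left out lay between -0.14 and 0.46. The labels number the stimulated samples, but only a protocol text numbers a control, so the numbers were not taken to pair the samples. Across probe sets the difference between the 2 control arrays correlated with that between the 2 stimulated arrays at 0.31. With the replicate number as a block 2040 probe sets, 8 of the members and 20 listed genes passed, Junb and Jund among the members. With no filter, the 60th percentile, centred arrays, an intensity trend or, for the members, 1 value per gene, 5 or 6 member probe sets or genes passed, and they were of Atf3, Fosl1, Jun, Maff and Mafk. The median of all changes stayed between -0.04 and 0.01 under these settings and with an array left out.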
